A study of Drosophila melanogaster with 4 samples.

Results

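Long stretches of the Drosophila melanogaster genome that carried no cluster of histone H4 monomethylated at lysine 20 (H4K20me1) were examined in adult heads. They are gaps of 40 kb or more between neighbouring enriched clusters on the arms 2L, 3L, 3R and X, and there were 438 of them among 5181 gaps of any length (8.45%). The gaps were selected on the deposited cluster positions themselves. Clusters of ChIP replicate 1 and replicate 2 were joined into 5185 union stretches, each gap was free of clusters in both replicates, and the unmarked ends of the arms were left out. Because cluster positions chose the gaps, their number, length, place and borders are given as descriptions without a test.

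All libraries came from nuclei of heads of wild-type Oregon-R flies, sieved from mixed adults that were raised in population cages. The series holds 2 chromatin immunoprecipitation (ChIP) libraries made with the 3rd lot of an H4K20me1 antibody and 2 libraries of input chromatin. The input libraries have no cluster list of their own, and their part in the authors' lists was not examined. The labels name no treatment and do not give the sex of the flies, and nothing in them says that the replicates were separate collections. Heads pool neurons, glia, photoreceptors, fat body and other cells, so a gap means that no cluster was listed for the mixture. Read totals were not given. The depth of each library is therefore unknown, and a gap shows only that enrichment did not pass the authors' limit. The lists held 5136 clusters of replicate 1 and 5424 of replicate 2 on these arms. Positions refer to FlyBase release 5 and start at 1.

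H4K20me1 is placed by the methyltransferase PR-Set7, and enzymes of the Suv4-20 family add further methyl groups to the same residue. Sequence without a cluster may therefore carry unmodified lysine 20 or its di- or trimethylated form, which this antibody was not used to map. The monomethylated form is known for its part in chromosome condensation and genome stability in dividing cells, and for its presence over the bodies of transcribed genes. Most cells of the adult head no longer divide. Genes in the gaps are not named, for want of a release 5 annotation in this work.

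The gaps were long enough together to rival the marked part of the genome. They summed to 41.0 Mb, or 41.9% of the 97.9 Mb on the 4 arms, while union stretches covered 31.4%. Shorter gaps held the rest, with 16.9% in gaps of 10 to 40 kb and 9.61% in gaps under 10 kb. Of all sequence without a cluster, 61.1% lay in the long gaps. The same rule applied to replicate 1 alone gave 459 gaps over 44.4% of the arms, and replicate 2 alone gave 465 gaps over 46.0%. Apart from arm ends, a union can only shorten or split the gaps of a single list, so larger shares in the single lists follow from the rule.

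Gap lengths ran from 40144 to 503279 bp. The median was 70.5 kb, with quartiles of 52.3 and 110 kb, against a median of 2489 bp for gaps of any length. Gaps of 40 to 60 kb were the most frequent at 166 of 438 (37.9%), but they held only 19.9% of the gap length. Another 134 gaps were 60 to 100 kb long. Gaps of 100 kb or more numbered 138 and held 55.7% of the gap length. Of these, 17 were 200 to 300 kb long and 10 exceeded 300 kb.

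Lengths continued smoothly through the 40-kb limit. The shortest gaps included were on X from 9405043 to 9445186 (40144 bp), on 3L from 22957666 to 22998002 (40337 bp) and on 3L from 2327973 to 2368338 (40366 bp). The longest gaps left out were on 3R from 16484592 to 16524571 (39980 bp), on 3R from 1785507 to 1825317 (39811 bp) and on 3L from 7648680 to 7688431 (39752 bp).

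**Figure D1:**
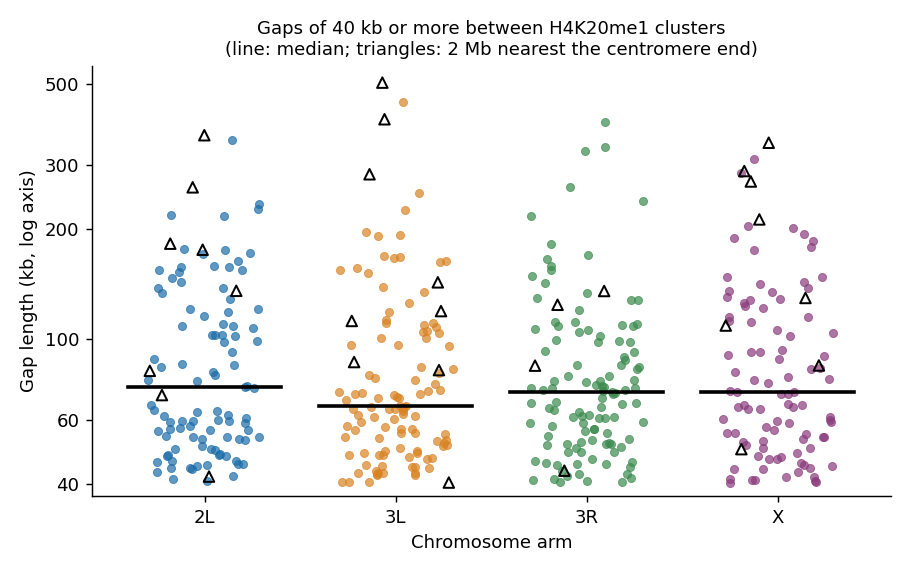
Length in kb (log axis) of each of the 438 gaps by chromosome arm, with a line at the median of each arm and triangles for the 29 gaps whose midpoint lay in the 2 Mb nearest the centromere end. Medians lay between 65.4 kb on 3L and 73.7 kb on 2L, and the longest gaps of 2L, 3L and X were in the centromere-end zone.

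The arms held similar numbers of gaps. There were 105 on 2L, 115 on 3L, 117 on 3R and 101 on X, or 4.56, 4.69, 4.19 and 4.50 per Mb. Gaps took up 44.4% of 2L, 43.7% of 3L, 37.02% of 3R and 43.5% of X. The arm 3R thus stood lowest, and it also had the highest share in union stretches (35.6%, against 31.0% on 2L and 30.7% on 3L). Its gaps of 100 kb or more held 47.1% of its gap length, against 55.2% on 3L, 59.2% on X and 61.6% on 2L.

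The X chromosome, present in a single copy in males, had the least sequence in union stretches (27.1%) without having the most in long gaps. Its gap share of 43.5% fell inside the range of the autosomal arms. What X had more of was short gaps. Gaps under 10 kb made up 12.1% of X and 8.77%, 8.45% and 9.35% of 2L, 3L and 3R. Gaps of 10 to 40 kb made up 17.2% of X, again within the autosomal range of 15.5% to 17.98%. Replicate 1 alone gave X a share of 45.0% in long gaps, between 41.6% on 3R and 47.8% on 2L. Replicate 2 alone gave X the highest share, 50.2%, next to 47.8% on 3L, 47.1% on 2L and 40.1% on 3R. The place of X in the order of the arms therefore depended on the replicate. One arm cannot be replicated within these libraries, so no test was made.

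**Figure D2:**
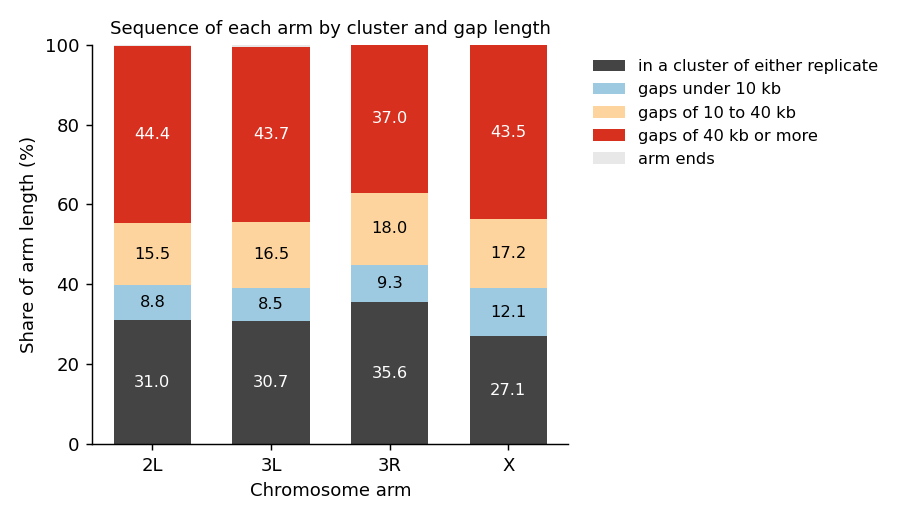
Share of each arm's length (%) in clusters of either replicate, in gaps of 3 length classes and at the unmarked arm ends, which are too narrow to see. Long gaps made up 43.5% of X and 37.02% to 44.4% of the other arms, while gaps under 10 kb were highest on X at 12.1%.

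On 2L, 3L and X, gaps filled more of the 2 Mb at the centromere end than of the remainder of the arm. On 3R they filled less of it. Heterochromatin, the compact and repeat-rich chromatin around centromeres, begins in this zone, and repeats can also leave sequence without aligned reads. The sources used here do not say how repeats were treated, and their part in these gaps was not tested. Gaps filled 65.4% of the zone on 2L, 88.4% on 3L and 73.0% on X. On 3R they filled 27.6%, below the 37.8% of the rest of that arm. The zone took up 8 Mb of the 97.9 Mb and held 250 of the 5181 gaps of any length. It held 29 of the long gaps (6.62%), or 3.625 per Mb, against 4.55 per Mb elsewhere. Long gaps were thus less frequent per Mb in the zone but longer, with a median of 129 kb against 66.8 kb for the 409 elsewhere. Without the zone, gaps still made up 40.0% of the sequence.

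Away from the centromere end, gaps were spread along the whole of each arm. When the remainder of every arm was divided into proximal, middle and distal parts of equal length, these held 137, 137 and 135 gaps. Their gap shares were 41.0%, 40.6% and 38.4%. Single arms were less even. The proximal part of 2L was in gaps to 50.8%, against 38.4% and 37.98% in its middle and distal parts. On 3L the middle part was highest at 45.6%, against 35.3% in the proximal and 38.4% in the distal part. The parts of 3R ranged from 36.1% to 38.9% and those of X from 39.95% to 41.8%.

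Over shorter distances the gap share varied widely. Across the 43 full bins of 2 Mb outside the centromere-end zone it ran from 14.3% to 59.97%, with a median of 38.5%. The narrower last bin of each arm was left out of this range. These last bins were at 76.1% on X, 45.4% on 2L, 42.2% on 3R and 12.6% on 3L. Neighbouring bins could be at opposite extremes. On 3R the bin from 4000001 to 6000000 was the lowest of the 43 full bins at 14.3%, with 52.4% in union stretches. The bin beside it, from 2000001 to 4000000, was the highest of that arm at 57.9%, with 21.8% in union stretches. The highest of the 43 full bins was on 3L from 4543558 to 6543557 (59.97%). It adjoined the lowest full bin of its arm, from 2543558 to 4543557 (20.3%). On X the bins from 2422828 to 4422827 (56.1%) and from 422828 to 2422827 (28.1%) were likewise neighbours. On 2L the range was narrower, from 33.6% to 56.9%.

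**Figure D3:**
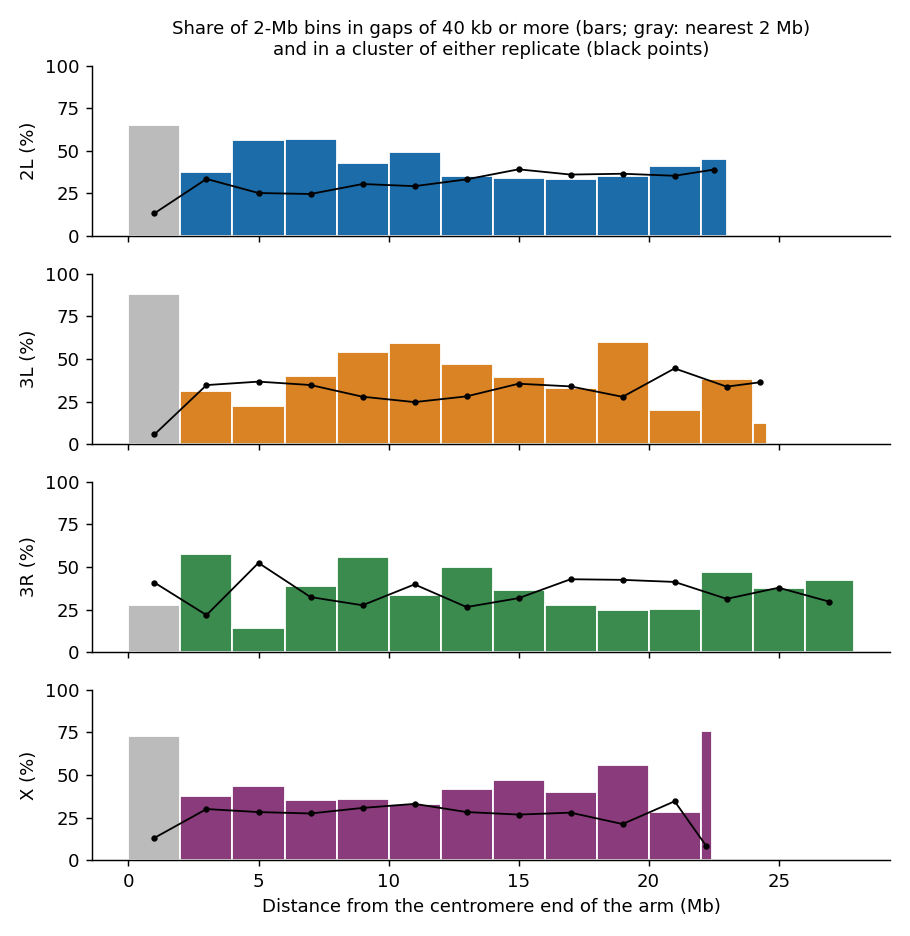
Share (%) of each 2-Mb bin in gaps of 40 kb or more (bars, with the bin nearest the centromere in gray) and in clusters of either replicate (black points) against distance from the centromere end in Mb. The last bin of each arm is narrower, gray bins reach 88.4% on 3L but 27.6% on 3R, and the lowest coloured full bin is at 14.3% on 3R.

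The longest interval without a long gap was on 3R from 4473996 to 6262484. It spanned 1.79 Mb, contained 125 union stretches and was covered by them to 61.0%. No other arm came near it. The longest such intervals were 642 kb on X, 639 kb on 2L and 558 kb on 3L. In the median, neighbouring gaps were 69.5 kb apart, which is about the length of a median gap.

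The 10 longest gaps together held 3.77 Mb, with 3 on 3L, 3 on 3R, 2 on 2L and 2 on X. Of these, 4 lay in the centromere-end zone. The longest of all, on 3L from 24028834 to 24532112 (503279 bp), was bordered on both sides by clusters of replicate 2 alone. In replicate 1 no cluster followed it, so in that list it ran on to the end of the arm. The others of the zone were on 3L from 23334328 to 23733711 (399384 bp), on 2L from 21760042 to 22121149 (361108 bp) and on X from 21501481 to 21845842 (344362 bp). In these the gap of each replicate alone was at most 401740, 361458 and 345080 bp, so both lists placed the ends within a few kilobases.

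The other 6 of the 10 longest lay outside that zone. The longest was on 3L from 18167140 to 18611845 (444706 bp). A single replicate 1 cluster of 1434 bp, with a score of 0.586, formed its low-coordinate border, and without it the gap in replicate 2 was 503120 bp long. On 3R a gap from 2485886 to 2878443 measured 392558 bp in replicate 2 and 392828 bp in replicate 1, with border clusters present in both lists. The gap on 2L from 1259002 to 1609157 (350156 bp) was 423303 bp long in replicate 1 alone. Its low-coordinate border was a replicate 2 cluster of 1990 bp with a score of 0.825. Beyond it lay another replicate 2 cluster, of 2171 bp with a score of 1.08. The gap was 73147 bp longer in replicate 1, which had neither cluster.

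The remaining long gaps were closely matched between the lists. On 3R the gap from 1835077 to 2169770 measured 334694 bp in replicate 1 and 336823 bp in replicate 2. Its midpoint lay just beyond the 2-Mb limit, so part of it fell in the centromere-end zone. On 3R the gap from 12481255 to 12808671, in the middle of the arm, measured 334776 bp in replicate 1 and 327730 bp in replicate 2. On X the gap from 2683474 to 2994747 measured 311286 and 313325 bp. In each of these 3 gaps, 1 border was a stretch found in both lists. The other was a cluster of 1 replicate, and its removal lengthened the gap by at most 7359 bp.

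Most gaps had at least 1 border that only 1 replicate supplied. Both borders were stretches with clusters of both replicates in 193 of 438 gaps (44.1%). Over the 876 gap sides, 67.2% had such a stretch, 16.3% a stretch of replicate 1 alone and 16.4% a stretch of replicate 2 alone. Counted as stretches, 548 of the 812 that touched a long gap were found in both lists (67.5%, 95% Wilson interval 64.2 to 70.6, counting error only). Of the 5185 union stretches on the 4 arms, 67.4% were found in both. Over the 4 arms together, stretches at the gaps were therefore shared between replicates about as often as stretches in general. The arms differed in direction. On X, 56.5% of stretches beside gaps and 62.2% elsewhere were shared, and on 2L, 3L and 3R together 70.9% and 69.3%.

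On X the borders came more often from replicate 1 alone. Replicate 1 alone supplied 62 of 202 gap sides on X (30.7%), against 9.52% on 2L, 13.0% on 3L and 13.2% on 3R. Replicate 2 alone supplied 13.4% of the X sides, next to 18.6%, 20.4% and 13.2% on 2L, 3L and 3R. Among stretches that touched no long gap, 23.3% on X and 11.97% on the other 3 arms were of replicate 1 alone. Among stretches that touched one, the shares were 30.4% and 12.1%. The X gaps also lengthened more in replicate 2 alone than in replicate 1 alone. Of 100 X gaps that lay between clusters in both lists, 34 were over 10 kb longer in replicate 2 alone and 11 were over 10 kb longer in replicate 1 alone. On 2L, 3L and 3R together, 46 of 335 were that much longer in replicate 2 and 54 in replicate 1.

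Where both replicates supplied the border, they placed it closely. The ends differed by a median of 280 bp over 589 gap sides (quartiles 110 and 673 bp), and by 1 kb or less at 84.4% of them. None differed by more than 10 kb. Replicate 1 reached further into the gap at 61.6% of these sides, from 54.7% on 3R to 73.5% on X. In 179 of 435 gaps (41.1%), each list alone gave a length within 2 kb of the union gap. This held for 25 of 100 gaps on X and for 43.4% to 48.7% on the other arms.

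Over the 4 arms, stretches that touched a long gap were no shorter or weaker in the median than the rest. Their median length was 3427.5 bp, and that of stretches touching none was 3327 bp. On X the order was reversed, with 2680 bp beside gaps and 2847 bp elsewhere. The median of their highest cluster score, a value of the authors whose scale is not stated, was 1.01 in replicate 1 and 1.04 in replicate 2. Stretches touching no long gap had medians of 0.917 and 0.986. The difference varied with the length of the stretch and the arm. For stretches of 3 to 10 kb on 2L, 3L and 3R the medians were 1.14 beside a gap and 0.972 elsewhere in replicate 1, and 1.17 and 1.03 in replicate 2. On X, stretches of that length had 1.12 and 1.104 in replicate 1 and 1.11 both beside a gap and elsewhere in replicate 2. Stretches under 3 kb differed little, with 0.679 and 0.678 in replicate 1 and 0.824 and 0.801 in replicate 2. Among stretches of 10 kb or more, those on X had medians of 1.55 beside a gap and 1.35 elsewhere in replicate 1, and 1.46 and 1.23 in replicate 2, but only 12 of them touched a gap. On 2L, 3L and 3R stretches of that length had 1.46 and 1.43 in replicate 1, and 1.52 and 1.43 in replicate 2. Over the 4 arms, stretches of 20 kb or more had the lower medians beside gaps, with 1.42 against 1.51 in replicate 1 and 1.495 against 1.502 in replicate 2.

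Marked stretches of every length class adjoined long gaps. Of the stretches under 3 kb, 15.2% touched a gap, as did 15.7% of those of 3 to 10 kb, 17.0% of those of 10 kb or more and 18.2% of the 231 that were at least 20 kb long. On X the shares were 14.7% of stretches under 3 kb, 13.0% of those of 3 to 10 kb and 12.0% of the 100 stretches of 10 kb or more. Of the 21 X stretches of at least 20 kb, 3 touched a gap (14.3%). Among the 20 longest union stretches of the 4 arms, 3 touched a long gap, next to 812 of all 5185. The longest of these 3 was on 2L from 12999986 to 13060175 (60190 bp). These stretches were looked up after the values were seen.

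The density of marked sequence beside long gaps was like that beside shorter gaps. In the 25 kb outward from each border, union stretches covered a median of 50.1% next to gaps of 40 kb or more (817 flanks outside the centromere-end zone). The median was 52.6% next to gaps of 100 kb or more, 47.97% next to gaps of 20 to 40 kb and 49.7% next to gaps of 10 to 20 kb. Each flank starts with a stretch by construction, which raises all these values above the 32.5% of the sequence outside the zone that was in union stretches.

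**Figure D4:**
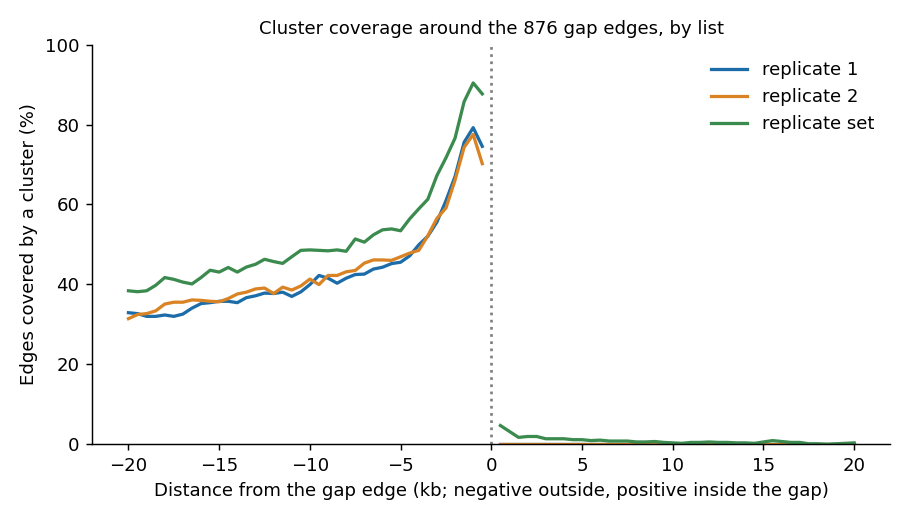
Share (%) of the 876 gap edges covered by a cluster of replicate 1, replicate 2 or the replicate set, against distance from the edge in kb, with negative values outside the gap. Both replicate lists are at 0 inside by definition, and the replicate-set list falls from 87.7% at 0.5 kb outside to 4.68% at 0.5 kb inside.

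A number of long gaps were parted from each other by a single union stretch, called an island here. In all, 64 union stretches had a long gap on both sides. Their median length was 3078 bp, 31 (48.4%) were under 3 kb and 41 (64.1%) were found in both lists. These values were near those of all union stretches, with a median of 3348 bp, 44.9% under 3 kb and 67.4% in both lists. Joining gaps across single islands under 10 kb put 103 of the 438 gaps into 46 runs. Most runs had 2 gaps (38 runs), 6 had 3, and a single run each had 4 and 5.

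The longest run was on X from 9580449 to 10101955. It spanned 522 kb, of which 97.5% lay in its 5 gaps. The 4 islands amounted to 12895 bp in total, and 3 of them were found in both lists. The islands ran from 9759319 to 9761591, from 9821857 to 9824484, from 9972392 to 9979073 and from 10056394 to 10057705. The third of them had the highest scores, 1.22 in replicate 1 and 1.79 in replicate 2, and the last was in replicate 2 alone. The next run, on 3L from 18109142 to 18611845, spanned 503 kb. It joined the longest gap outside the centromere ends to its neighbour across the 1434-bp cluster of replicate 1. Of the 64 islands, 7 (10.9%) reached 10 kb, next to 14.4% of all 5185 union stretches. The longest, on 3L from 13221765 to 13271998 (50234 bp), had scores of 1.09 and 1.38 and was looked up after the values were seen.

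Each replicate list held isolated clusters in places where the other had a long gap. Of the 459 gaps of replicate 1 alone, 141 (30.7%) contained at least 1 whole cluster of replicate 2, and 40 contained no gap of the union. Of the 465 gaps of replicate 2 alone, 159 (34.2%) contained a whole cluster of replicate 1, and 38 contained no union gap. The 238 replicate 2 clusters inside replicate 1 gaps were small, at 1649 bp in the median, and their median score of 0.813 was below the 0.960 of all replicate 2 clusters. The 256 replicate 1 clusters inside replicate 2 gaps were of 1769.5 bp in the median, and their median score was 0.705, below the 0.874 of all replicate 1 clusters. Clusters inside gaps of the other list are unshared by definition, whereas all clusters include long and shared ones. Union stretches under 3 kb that touched no long gap had median highest scores near these, 0.678 in replicate 1 and 0.801 in replicate 2. Again X stood apart. There, 63 of the 109 gaps of replicate 2 (57.8%) contained a replicate 1 cluster, against 21.8% to 30.6% on the other arms. In the opposite direction the share on X was 22.5%, next to 31.8% to 34.5% on the other arms.

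Outside the centromere-end zone, the longest single-replicate gaps that the other list broke were as follows. Replicate 1 had no cluster on 2L from 1185855 to 1609157 (423 kb), where replicate 2 had 2 clusters with scores of 0.825 and 1.08. It had none on 3R from 12481255 to 12816030 (335 kb), where replicate 2 had 1 cluster of 1443 bp with a score of 0.981. On X from 7205555 to 7502226 (297 kb), 1 cluster of 1896 bp in replicate 2 scored 1.01. Replicate 2 had no cluster on 3L from 18109142 to 18612261 (503 kb), on 3R from 1834946 to 2171768 (337 kb) and on X from 2683474 to 2996798 (313 kb). Each of these held 1 cluster of replicate 1, with scores of 0.586, 0.562 and 0.692. The clusters on 2L and 3L parted the gap into 2 gaps of the union, while in the other 4 a single union gap of 40 kb or more remained.

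The replicate-set list, which the authors gave for both replicates together, was nearly empty in the gaps. It is not independent of the replicate lists. Of the 438 gaps, 319 (72.8%, 95% Wilson interval 68.5 to 76.8, counting error only) contained at least 1 of its bases. The share was much the same with a minimum length of 30 kb (73.5%) or 60 kb (73.9%). In the 438 gaps these bases came to 244 kb, or 0.594% of the gap length. In 225 gaps they were only the overhang of a cluster that reached in across a border. A whole replicate-set cluster lay in 94 gaps (21.5%), and 119 gaps had no base of the list.

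The 136 replicate-set clusters that lay wholly inside the gaps were small and scored low. By the gap rule they overlap no cluster of either replicate, so their size and score are not independent of the selection. Their median length was 1182 bp, the longest was 3005 bp, and 87 were shorter than the 1301-bp minimum of both replicate lists. Their median score was 0.503, against 0.643 for all replicate-set clusters of the 4 arms. They occurred at 3.31 per Mb of long gap, whereas gaps under 40 kb held 22.9 per Mb. Within the long gaps the density fell with length, from 5.64 per Mb in gaps of 40 to 60 kb to 3.27 in gaps of 100 to 200 kb and 0.265 in the 10 gaps over 300 kb. Of those 10 gaps, 1 contained a whole replicate-set cluster and 4 had no base of the list. The latter were the gaps on 3L from 18167140, on X from 21501481, and on 3R from 1835077 and from 12481255.

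Replicate-set clusters inside gaps were most frequent on X. Whole clusters lay in 35 of 101 X gaps (34.7%), against 16.2% on 2L, 20.0% on 3L and 16.2% on 3R. The density was 5.54 per Mb of gap on X and 2.62 on the other arms together. Gaps under 40 kb showed the same order, with 36.1 per Mb on X and 18.4 on the others. Scores of the inner clusters had a median of 0.584 on X and 0.473 on the other arms. Here too, the median over all replicate-set clusters was higher on X, at 0.676 against 0.620.

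The gap with the most replicate-set sequence was on X from 8574322 to 8763230, where 8 whole clusters with scores of 0.386 to 0.671 contributed to 10023 bases (5.31% of the gap). It was followed by X from 14299245 to 14474109, with 5 whole clusters and 7635 bases (4.37%), and 3L from 8716454 to 8771227, with 4 whole clusters and 4978 bases (9.09%). The next were 3L from 22873779 to 22955796 (4265 bases) and 2L from 16985087 to 17132171 (4152 bases).

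**Figure D5:**
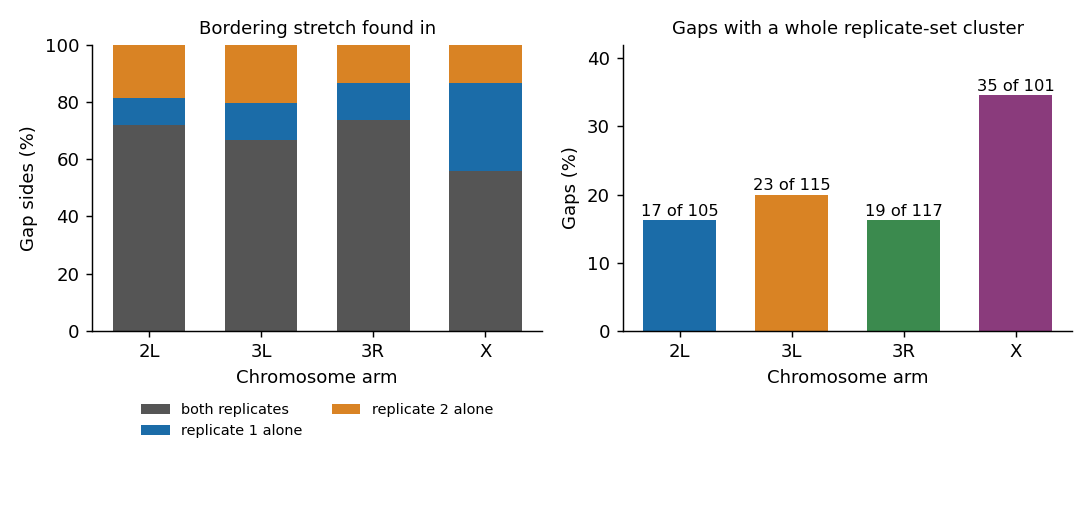
Left, share (%) of gap sides on each arm whose bordering stretch was found in both replicates, replicate 1 alone or replicate 2 alone; right, share (%) of gaps on each arm that contained a whole replicate-set cluster, with the counts above the bars. X has the highest share of borders from replicate 1 alone (30.7%) and of gaps with a whole replicate-set cluster (34.7%).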

How the data were processed

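The authors deposited 3 lists of enriched regions in GFF3 format, 1 for each ChIP replicate and 1 for the replicate set, on FlyBase release 5 per the file headers. The submitters' processing notes name the aligner Bowtie, version 0.12.7. Which program found the clusters, at which limit, how it handled repeats and whether reads were pooled for the replicate set are not given in the sources used here. Each deposited cluster has start and end positions and a score of unstated scale, so the score was used only to rank and describe clusters within a list.

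Clusters of both replicates were merged wherever they overlapped or adjoined, and gaps of 40 kb or more between neighbouring union stretches were kept on 2L, 3L, 3R and X. Centromeres adjoin the upper coordinate end of 2L, 3L and X and the lower end of 3R, and a gap belonged to its 2-Mb zone by its midpoint. Gap finding was tested on simulated data, where all planted gaps were recovered in 20 of 20 lists. For lengths in single replicates, 3 gaps that ran to an arm end in 1 list were left out. Intervals of shares are Wilson intervals at 95%. No test was made, since the lists chose the gaps. Named gaps are the 10 longest, the longest of each arm with and without the centromere zone, 3 on either side of the 40-kb limit, the 5 with most replicate-set bases, the longest run, and, outside the centromere zone, the 3 longest of each replicate broken by the other. The gaps, rules and alternatives were chosen with earlier results of these data known. A table of genes on release 6 was not used, because the builds differ, and 2R was not analysed here. Tables were made in Python 3.11.15 with numpy 2.4.6. Intervals came from scipy 1.17.1, and plots from matplotlib 3.10.9.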

Additional observations from a re-analysis of the deposited data

How the results depend on the processing

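The number of gaps stayed within 1.5 times 438 in all alternatives except a 60-kb minimum, which left 272. It was 459 to 465 with 1 replicate left out. The gap share of the arms, 41.9%, ranged from 44.4% to 46.0% with 1 replicate left out. It was 50.1% between sequence found in both lists, 49.1% with only clusters that touch the other replicate, 44.8% with the upper 75% of each list by score, 46.5% with a 30-kb and 33.6% with a 60-kb minimum, and 40.0% without the 2 Mb at the centromere end. Apart from arm ends, taking clusters away or lowering the minimum raises this share by construction. The share of gaps on X (23.1%) moved beyond the replicate spread only in the replicate-set list, to 22.2%, and was 22.2% to 23.4% with 1 replicate left out. The share of gaps in the centromere-end zone (6.62%) was 5.23% to 6.45% with 1 replicate left out, 5.54% in sequence found in both lists and 9.19% with the 60-kb minimum. Gaps with a replicate-set base (72.8%) rose to between 88.9% and 93.8% with 1 replicate left out. Of the single-list gaps, 303 of 459 in replicate 1 and 377 of 465 in replicate 2 held a base of the other list. Border stretches found in both lists (67.5%) came to 59.9% under a stricter rule of sharing, with the stretch covered to 50% by both replicates. Apart from shifts that follow by construction, the cause of these changes was not tested. With 2 replicates and no read counts, the limits on gaps are those of the lists: depth, alignability and the mixture of cells cannot be told apart from absence of the mark. No paired analysis was possible because cluster lists cover the ChIP replicates and not the equally numbered inputs.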
